A study of Mus musculus with 6 samples.

Results

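The genes described here encode the cytosolic ribosomal proteins and the factors that start and extend protein chains on the ribosome. They were taken by symbol: every probe set annotated to exactly 1 gene whose symbol begins with Rpl or Rps and a digit or with Rplp, Eif or Eef and a digit, or is Rpsa, without the S6 kinases and without the Y-linked Eif2s3y. This gave 218 probe sets for 100 of the 12393 named genes on the array. Of these genes, 49 are ribosomal proteins (26 of the large and 23 of the small subunit), 41 are initiation factors or their regulators, and 10 are elongation factors or their regulators. The choice by symbol used no expression value.

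Livers of wild-type mice (3 arrays) and of transgenic mice (3 arrays) were compared at postnatal day 9, 1 array for each animal. The transgenic animals carried a conditional allele that overexpresses Tcfeb, now named Tfeb, the gene of the lysosomal transcription factor TFEB, together with Alb-Cre. Alb-Cre expresses Cre recombinase from the albumin promoter, so the allele is switched on in cells where that promoter is or was active. Which liver cells carried the active allele was not measured. The labels name no strain, and they do not say whether the controls carried either allele alone. Values are log2 expression. Differences are given as transgenic less wild type, each with its standard error (SE) from limma. A gene passed when limma's p, adjusted by the Benjamini-Hochberg method over all 12393 genes, was under 0.05. The number of arrays limits the precision.

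The single Tfeb probe set read 6.71 ± 0.18 (SD, n = 3) in wild type and 6.50 ± 0.13 (SD, n = 3) in transgenic livers, a difference of -0.21 (adjusted p = 0.168). The part of the gene carried by the construct is not described, so this reading does not check the labels. The arrays correlated at 0.993 to 0.997 within a group and at 0.972 to 0.975 between groups. All 14 bacterial control probe sets read lower on every transgenic array, with a median difference of -0.37. The array of transgenic replicate 1 read Xist at 5.58 against 13.03 to 13.19 on the other 5 arrays, and Eif2s3y at 9.32 against 3.06 to 3.43, so its animal differs from the others in sex.

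A ribosome is built from a small and a large subunit, each a body of ribosomal RNA carrying many proteins, and the proteins are needed in nearly equal numbers. Initiation factors bring the first transfer RNA, the messenger RNA and the subunits together, and elongation factors deliver each further transfer RNA and move the ribosome along. In liver, which secretes most plasma proteins, messenger RNAs of this machinery are among the most abundant, and their use is set largely at translation through the kinase mTORC1. In bulk tissue, fewer cells of a type and less RNA per cell cannot be told apart.

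Across the whole set the transgenic livers read slightly higher. Of the 100 genes, 37 rose and 1, Rpl27a, fell. Among all 12393 genes, 19.9% rose and 20.4% fell, in all 40.3% past the threshold, against 38% of the members. The share called was therefore near that of all genes, and the members differed from all genes in direction. The median difference was 0.15 over the members and -0.04 over all genes, and 83 of 100 members lay above 0 against 44.8% of all genes. Direction also varied with level over the array. In the dimmest of 10 brightness groups 20.2% of genes lay above 0 and 0.565% rose, with a median of -0.11. In the brightest group, which holds 56 of the 100 members, 55.3% lay above 0, with a median of 0.06. There 32.1% rose and 29.4% fell, in all 61.5% past the threshold. Beside that group, 37% of the members rose, 1% fell and 38% passed, so members fell and passed less often than bright genes. For 63 members every transgenic array read above every wild-type array, and for 5 every one read below. The same held for 25.6% and 28.1% of all genes, and for 523 and 432 of the 1240 genes of the brightest group. Most changes were small, since 9 members rose by at least 0.5 (8.4% of all genes did) and only Eif2ak3 by at least 1.

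The classes differed in how many members rose. Of 41 initiation factors 20 rose and 0 fell by limma (at an unadjusted p under 0.05, 26 were higher and 1, Eif4ebp2, lower), with a median of 0.22. Of 49 ribosomal proteins 15 rose and 1 fell, with a median of 0.13. Of 10 elongation genes 2 rose and 0 fell by limma (unadjusted, 2 higher and 1, Eef2k, lower), with a median of 0.11. As shares, 48.8% of initiation factors, 30.6% of ribosomal proteins and 20% of elongation genes rose, against 19.9% of all genes. Of the brightest 10% of genes, which hold 16, 36 and 4 members of these classes, 32.1% rose. The ribosomal share was thus near that of bright genes and the elongation share near that of all genes. The class differences were not tested against each other. Each transgenic array showed the same order of classes. The median deviation from the wild-type mean over initiation factors was 0.24, 0.24 and 0.20 on transgenic replicates 1, 2 and 3. Over ribosomal proteins it was 0.13, 0.15 and 0.09, and over elongation genes 0.11, 0.08 and 0.06. The wild-type arrays lay between -0.01 and 0.02 in all 3 classes.

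**Figure D1:**
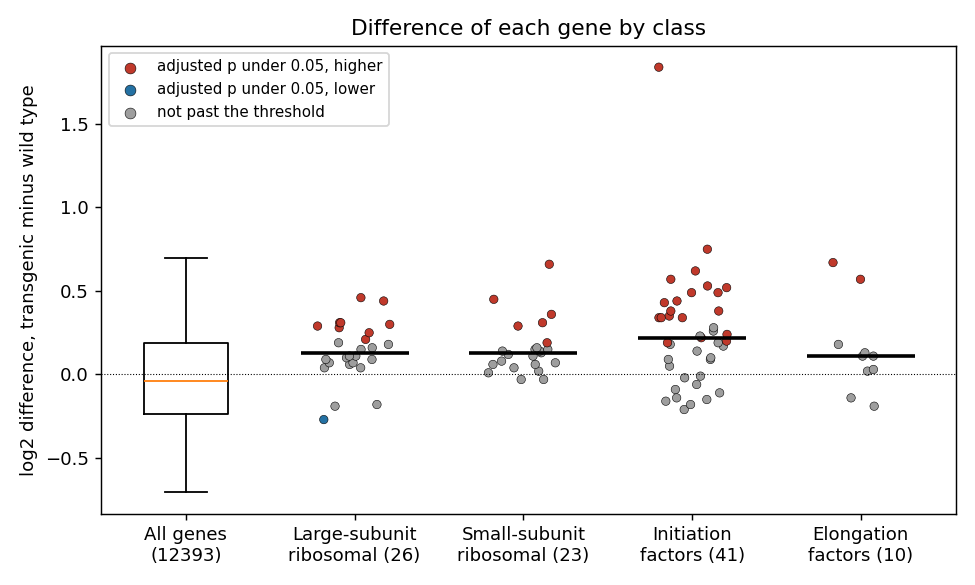
Each point is 1 gene of a class, with its log2 difference (transgenic minus wild type) on the vertical axis, red where it rose, blue where it fell and grey where it did not pass the threshold; black bars are class medians. The box gives all 12393 genes (25th to 75th percentile, line at the median, whiskers from the 5th to the 95th percentile); the class medians of 0.13, 0.13, 0.22 and 0.11 lie above its median of -0.04.

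Scaling decides how much of the machinery passes. With the arrays scaled to the bacterial controls, which read lower on the transgenic arrays, the median over all genes moved from -0.04 to 0.33. Then 7010 genes rose and 651 fell, in place of 2467 and 2523. Under that scaling 46 of 49 ribosomal proteins, 35 of 41 initiation factors and 8 of 10 elongation genes rose, and their medians were 0.51, 0.59 and 0.48. This scaling shifts all genes alike, so all 17 members below 0 turned above 0, and the order of the members and their distance from the array median stay as they were by construction.

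Initiation begins with eIF2, a heterotrimer that carries the initiator transfer RNA and GTP. Eif2s2, its beta subunit, read 11.29, 11.62 and 11.56 in the wild-type and 12.09, 12.16 and 11.94 in the transgenic livers, a rise of 0.57 (SE 0.11, adjusted p = 0.00421). All transgenic readings lay above all wild-type readings, and 4 of its 6 probe sets rose when each was tested alone. Eif2s3x, the X-linked gamma subunit, read 11.32, 11.30 and 11.27 in wild type and 10.76, 11.23 and 11.27 in transgenic livers. Only the array of the animal of the other sex was low. Its difference was -0.21 (SE 0.13, adjusted p = 0.25), and without that array it was -0.04 (adjusted p = 0.678).

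The exchange factor eIF2B reloads eIF2 with GTP and is the step that phosphorylated eIF2 blocks. Of its 4 measured subunits 2 rose, against 19.9% of all genes. Eif2b2, the beta subunit, rose by 0.53 (SE 0.08, adjusted p = 0.00177), from 9.26, 9.09 and 9.12 to 9.75, 9.74 and 9.58. Eif2b5, the catalytic epsilon subunit, rose by 0.34 (SE 0.07, adjusted p = 0.00635), from 8.65, 8.65 and 8.77 to 8.98, 9.07 and 9.05. The groups did not overlap for either gene. Eif2b1 differed by 0.05 and Eif2b4 by -0.15, with overlapping groups.

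The 4 eIF2 kinases each answer a different stress, and their readings went apart. Eif2ak3 encodes PERK, the kinase of the endoplasmic reticulum membrane that responds to unfolded proteins. It read 8.82, 8.87 and 8.80 in wild type and 10.49, 10.72 and 10.80 in transgenic livers, a rise of 1.84 (SE 0.09), or 3.57-fold (adjusted p = 1.19e-05). Its groups lay far apart relative to their spread. Of its other 2 probe sets, each tested alone over 20380 probe sets, 1 rose by 0.88 and the other differed by 0.22 (adjusted p = 0.107). Eif2ak2, or PKR, the kinase for double-stranded RNA, rose by 0.19 (SE 0.07, adjusted p = 0.047). That call was lost with any of the 6 arrays left out (adjusted p 0.0559 to 0.131). Eif2ak1, or HRI, the kinase for low haem, differed by 0.19 (adjusted p = 0.0581), while a dim probe set of the same gene was lower by -0.35 when tested alone (adjusted p = 0.0472). Eif2ak4, or GCN2, the kinase for amino acid shortage, differed by -0.16 (adjusted p = 0.195).

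The eIF3 complex is the scaffold that holds the small subunit, eIF4G and the messenger RNA. All 11 measured subunits lay above 0, all 11 had every transgenic array above every wild-type array, and 6 rose. Among all genes 25.6% had every transgenic array above every wild-type array, and 19.9% rose. Among the brightest 10% of genes, which hold 7 of the 11 subunits, these were 523 of 1240 genes and 32.1%. The differences of the eIF3 subunits ran from 0.09 for Eif3d to 0.49 for Eif3c, with a median of 0.26. Eif3c, a core subunit, read 11.60, 11.53 and 11.54 in wild type and 12.06, 12.09 and 12.00 in transgenic livers (SE 0.06, adjusted p = 0.000812). Eif3l, a peripheral subunit, read 10.57, 10.64 and 10.49 against 11.01, 11.07 and 10.92, a rise of 0.43 (SE 0.07, adjusted p = 0.00297). Its partner Eif3k rose by 0.35 (SE 0.08), the core subunit Eif3b by 0.34 (SE 0.09), Eif3a by 0.24 (SE 0.07) and Eif3i by 0.20 (SE 0.07). The other 5 subunits, Eif3d, Eif3e, Eif3f, Eif3h and Eif3m, differed by 0.09 to 0.28 and did not pass. With the mean of the probe sets of each gene in place of the brightest, Eif3l did not pass either (0.18, adjusted p = 0.0622).

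Cap recognition and unwinding rest on families of related genes, and differences between relatives were not tested. The helicase gene Eif4a1 read 12.08, 12.18 and 12.14 in wild type and 12.65, 12.71 and 12.62 in transgenic livers, a rise of 0.52 (SE 0.07, adjusted p = 0.000692). Its 3 probe sets gave 0.49 to 0.55. Its close paralog Eif4a2 read 11.83, 11.94 and 11.96 against 11.82, 11.79 and 11.96, with overlapping groups and a difference of -0.06 (95% interval -0.23 to 0.12), though it passed as higher with bacterial scaling (0.31, adjusted p = 0.0141). Among their cofactors, Eif4h rose by 0.22 (SE 0.06, adjusted p = 0.024), and Eif4b differed by -0.02 (adjusted p = 0.878). The scaffolds Eif4g2 and Eif4g3 differed by 0.10 and -0.01 and did not pass.

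Among cap-binding proteins, Eif4e3 read 7.05, 7.39 and 7.29 in wild type and 7.99, 7.98 and 7.99 in transgenic livers. The groups did not overlap, and it rose by 0.75 (SE 0.09, adjusted p = 0.00073). Eif4e, the main cap-binding factor, rose by 0.34 (SE 0.08, adjusted p = 0.00976), but its other 2 probe sets each differed by 0.13 without passing, and the mean of the 3 did not pass (0.20, adjusted p = 0.0689). Eif4e2 differed by 0.18 (adjusted p = 0.0971), while another of its probe sets rose by 0.44 when tested alone. The inhibitors of eIF4E are small proteins that release it when mTORC1 phosphorylates them. Eif4ebp1 read 9.83, 9.68 and 9.61 against 10.27, 10.21 and 10.10, a rise of 0.49 (SE 0.08, adjusted p = 0.00314). With each of its 3 probe sets tested alone, 2 rose, and the dimmest differed by -0.21 (adjusted p = 0.0803). Eif4ebp2 read 9.42, 9.25 and 9.39 against 9.13, 9.19 and 9.20, all transgenic arrays below all wild-type arrays, with a difference of -0.18 that did not pass (adjusted p = 0.0825). It did pass, as lower, after median centring (-0.22), cyclic loess (-0.27) and a repeated quantile normalization (-0.25). Eif4enif1, the carrier of eIF4E into the nucleus, differed by -0.14 (adjusted p = 0.135).

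Start-site scanning and subunit joining close the initiation phase. Eif1a and its X-linked copy Eif1ax, which keep the scanning small subunit open, each rose by 0.38, with adjusted p of 0.00522 and 0.00421. For Eif1ax this rests on 1 of 2 probe sets, since the other differed by 0.11 (adjusted p = 0.49 with probe sets of shared sequence left out). Both probe sets of Eif1a carry a suffix that marks possible binding to other transcripts. Whether its rise is separate from that of Eif1ax was not tested. Eif1b differed by -0.09 (adjusted p = 0.353). Eif5b, the GTPase that joins the subunits, read 7.59, 7.60 and 7.56 in wild type and 7.90, 8.02 and 8.14 in transgenic livers, a rise of 0.44 (SE 0.08, adjusted p = 0.00369). With each of its 3 probe sets tested alone, 1 rose. Eif5 differed by -0.11 and Eif5a by 0.09, and neither passed. Eif6, which keeps the large subunit from joining too early and is needed to make it, read 9.49, 9.52 and 9.42 against 10.18, 10.07 and 10.04. It rose by 0.62 (SE 0.07, adjusted p = 0.000414), with groups well apart.

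**Figure D2:**
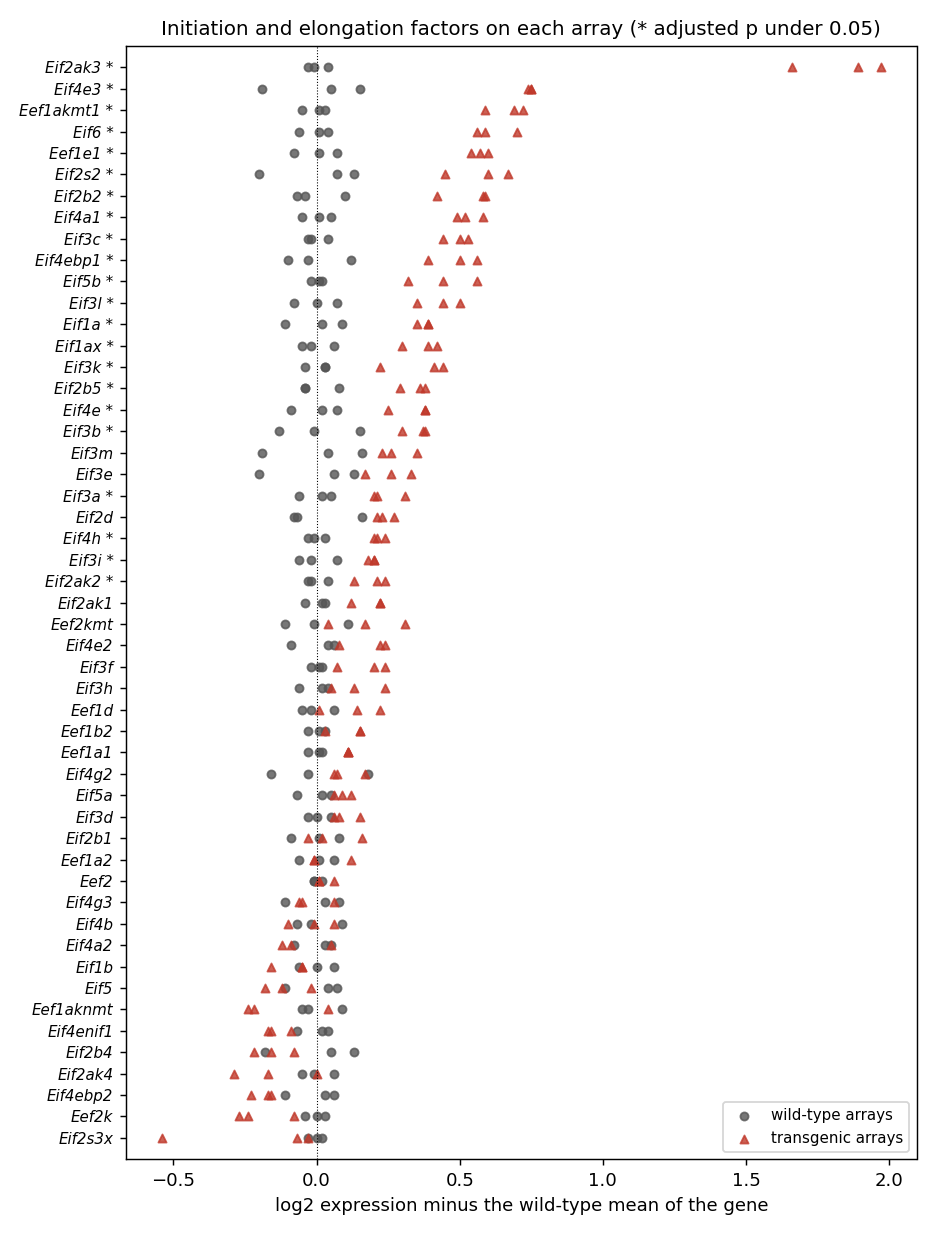
Each row is an initiation or elongation factor gene, ordered by its difference and starred where it passed the threshold; the horizontal axis is the log2 reading of each array minus the wild-type mean of that gene. Circles are the 3 wild-type and triangles the 3 transgenic arrays; Eif2ak3 stands apart at 1.84, and the low triangle of Eif2s3x is transgenic replicate 1.

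Among the elongation members, eEF1A, eEF2 and the eEF1B subunits Eef1b2 and Eef1d did not pass, while Eef1e1 and Eef1akmt1 did. Eef1a1, which delivers transfer RNA, read 13.95, 13.99 and 14.00 in wild type and 14.09 on each transgenic array, with no overlap and a difference of 0.11 (95% interval -0.03 to 0.25, adjusted p = 0.187). Eef2, the translocase, read 12.44, 12.44 and 12.47 against 12.46, 12.51 and 12.46, a difference of 0.02 (interval -0.12 to 0.16). With bacterial scaling both passed as higher (Eef1a1 0.48, adjusted p = 0.00148, and Eef2 0.39, adjusted p = 0.0046), and Eef1a1 also passed with the trend and robust options of limma (0.11, adjusted p = 0.0461). Eef1a2, the form of muscle and neurons, differed by 0.03. The exchange factor subunits Eef1b2 and Eef1d differed by 0.11 and 0.13 and did not pass. A further subunit, Eef1g, is read only by a set that also names another gene and is no member; that set rose by 0.25 (adjusted p = 0.0315).

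Eef1e1, which carries an elongation factor's name but works in the complex of transfer RNA synthetases, read 8.32, 8.41 and 8.47 in wild type and 8.97 ± 0.03 (SD, n = 3) in transgenic livers. It rose by 0.57 (SE 0.07, adjusted p = 0.000542). Eef1akmt1, a lysine methyltransferase of eEF1A, read 7.54, 7.56 and 7.48 against 8.25, 8.22 and 8.12, and rose by 0.67 (SE 0.07, adjusted p = 0.000262). For both genes, by the brightest set, every transgenic array lay above every wild-type array. With each of the 4 probe sets of Eef1akmt1 tested alone, 3 rose, and the dimmest differed by -0.23 (adjusted p = 0.154). The other modifying enzymes did not pass: Eef2kmt differed by 0.18, Eef1aknmt by -0.14 and Eef2k by -0.19. Eef2k, the kinase that inactivates eEF2, passed as lower once transgenic replicate 1 was left out (-0.25, adjusted p = 0.0394) and after median centring (-0.23, adjusted p = 0.041).

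Ribosomal protein readings moved little and mostly the same way. Of 36 ribosomal protein genes in the brightest 10% of all genes, 11 rose and 0 fell by limma, and 35 lay above 0, with differences from -0.03 to 0.36 and a median of 0.14. Over all 1240 genes of that brightness, 32.1% rose and 29.4% fell, with a median of 0.06 and a middle range from -0.33 to 0.29. The share that rose was therefore near that of other bright genes. Of the 13 dimmer ribosomal protein genes 4 rose and 1 fell.

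**Figure D3:**
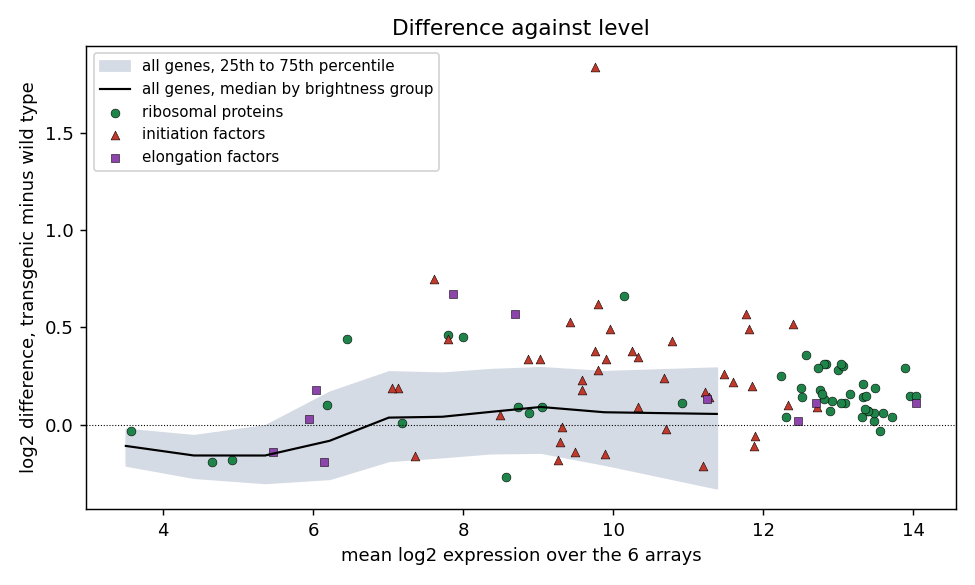
The horizontal axis is the mean log2 expression of a gene over the 6 arrays and the vertical axis its log2 difference (transgenic minus wild type); the band and line are the 25th to 75th percentile and the median of all genes in 10 brightness groups. Ribosomal proteins (green circles) crowd at the bright end between -0.03 and 0.36, whereas initiation factors (red triangles) and elongation factors (purple squares) spread over the range.

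In the large subunit 9 of 26 genes rose and 1 fell (34.6% and 3.85%). Of the brightest 10% of genes, which hold 18 of the 26, 32.1% rose and 29.4% fell. Rpl10a read 12.70, 12.67 and 12.69 in wild type and 13.01, 12.96 and 13.01 in transgenic livers, a rise of 0.31 (SE 0.06, adjusted p = 0.00572). Rplp0, the base of the stalk that recruits elongation factors, read 12.91, 12.92 and 12.92 against 13.26, 13.23 and 13.17, a rise of 0.30 (SE 0.06, adjusted p = 0.00682). Rpl27 rose by 0.31 (SE 0.07), Rpl41 by 0.29 (SE 0.07) and Rpl19 by 0.28 (SE 0.07). The groups overlapped for none of these 5 genes. Rplp2, another stalk protein, rose by 0.21 (SE 0.06, adjusted p = 0.0287).

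The largest rises and the fall in the large subunit came from probe sets that read outside the brightest 10% of genes, where most ribosomal proteins lie. Rpl12 rose by 0.46 (SE 0.14), from 7.48, 7.34 and 7.89 to a range of 7.97 to 8.11, and Rpl14 rose by 0.44 (SE 0.08), from 6.32, 6.11 and 6.25 to 6.71, 6.68 and 6.60. Rpl27a read 8.73, 8.66 and 8.71 against 8.40, 8.39 and 8.51 and fell by 0.27 (SE 0.07, adjusted p = 0.0158). Probe sets annotated to several genes are no members, but some name these genes, and they were looked at after the values were seen. The 5 that name Rpl14 read 10.69 to 12.3 and differed by only 0.09 to 0.14, and 0 of them rose (smallest adjusted p = 0.152). The 1 that names Rpl27a read 13.41 and differed by 0.08 (adjusted p = 0.36), so it lay on the other side of 0. Both that name Rpl12 rose, by 0.28 and 0.41. With bacterial scaling the Rpl27a member set itself gave 0.10 and did not pass.

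In the small subunit 6 of 23 genes rose (26.1%) and 0 fell by limma (unadjusted, 9 higher and 0 lower). Of the brightest 10% of genes, which hold 18 of the 23, 32.1% rose and 29.4% fell. Rpsa, a small-subunit protein also known as a laminin receptor, read 12.97, 12.78 and 12.86 against 13.22, 13.18 and 13.16, a rise of 0.31 (SE 0.07, adjusted p = 0.0115). Rps19, the gene most often mutated in Diamond-Blackfan anaemia, rose by 0.29 (SE 0.07) and Rps24 by 0.19 (SE 0.06). By the mean of the probe sets of each gene, Rpsa (0.19, adjusted p = 0.0622) and Rps24 (0.16, adjusted p = 0.0798) did not pass. With each probe set tested alone, 1 of the 2 sets of Rpsa and 0 of the 6 sets of Rps24 rose. Rps25, which some viral messenger RNAs need for initiation, rose by 0.45 (SE 0.08) on a probe set reading 8.0 on average. The set that names it among several genes read 12.84 and differed by 0.10 (adjusted p = 0.272). Rps6, the substrate of the S6 kinases, read 8.89, 8.88 and 8.74 against 8.89, 8.91 and 8.89, and its groups overlapped. Of the 9 sets that name it together with another gene, 7 were brighter, at 9.16 to 13.99. These differed by -0.1 to 0.18, and 0 of them passed (smallest adjusted p = 0.0616).

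Several ribosomal proteins have a paralog that can stand in for them. Of the 6 measured paralogs 3 rose, against 19.9% of all genes. Rps27l, a target of p53, read 12.37, 12.43 and 12.38 in wild type and 12.75, 12.74 and 12.76 in transgenic livers, a rise of 0.36 (SE 0.06, adjusted p = 0.00312). Its partner Rps27 read 7.21, 7.15 and 7.19 against 7.19, 7.23 and 7.16, with overlapping groups and a difference of 0.01 (interval -0.13 to 0.16). A set that names Rps27 and a related gene read 12.34 and differed by 0.13 (adjusted p = 0.24). Rpl22l1 rose by 0.25 (SE 0.07, adjusted p = 0.0225), from 12.03, 12.15 and 12.13 to 12.33, 12.31 and 12.42. Its partner Rpl22 differed by 0.11 on the brighter probe set (adjusted p = 0.285), while its other probe set read 9.20, 8.98 and 9.12 against 8.61, 8.48 and 8.51, lower by -0.57 when tested alone (adjusted p = 0.00136). These 2 sets of Rpl22 go opposite ways, and their mean was lower (-0.23, adjusted p = 0.0164), so its direction is not settled. Rps4l rose by 0.66 (SE 0.19, adjusted p = 0.0294), from 10.11, 9.84 and 9.50 to 10.27, 10.84 and 10.31, the widest spread among the ribosomal proteins. Its partner Rps4x differed by 0.04. The germline and muscle forms Rpl39l and Rpl3l read between 4.41 and 5.16 and differed by -0.18 and -0.19 without passing. Rpl7l1 and Rpl7 differed by 0.09 and 0.04, and Rpl39 by 0.10.

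**Figure D4:**
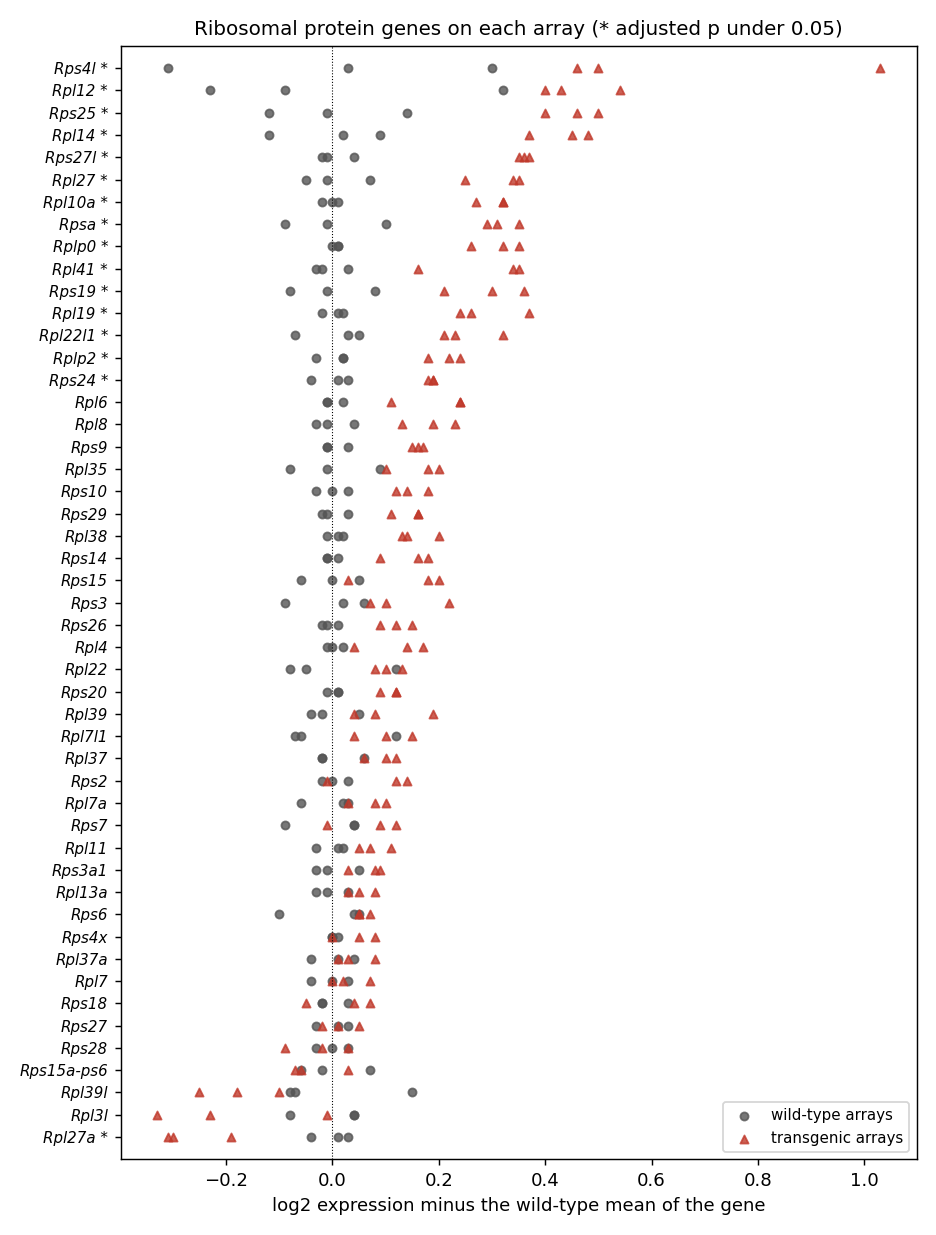
Each row is a ribosomal protein gene, ordered by its difference and starred where it passed the threshold; the horizontal axis is the log2 reading of each array minus the wild-type mean of that gene. Circles are the 3 wild-type and triangles the 3 transgenic arrays; most triangles lie to the right of the circles by less than 0.3, and Rps4l at the top shows the widest scatter.

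Many of these genes share sequence with processed pseudogenes or paralogs, and 53 members, 31 of them ribosomal proteins, were read by a probe set whose suffix marks possible binding to other transcripts. Without such sets 63 members were left, of which 9 ribosomal proteins and 13 initiation factors rose. Of all 10529 genes left, 1879 rose. Of the 218 probe sets tested alone, 64 rose and 4 fell (a set each of Rpl27a, Rpl22, Rps4x and Eif2ak1). Over all 20380 probe sets, 3801 rose and 3597 fell. For 0 members were probe sets called in both directions. Of the 23 called members with several probe sets, 17 had all sets on the same side of 0. The 102 ribosomal probe sets that name several genes had a median difference of 0.11, near the 0.13 of the members. Of these, 13 rose and 1 fell, a smaller share rising than among the ribosomal members (15 of 49) or over all probe sets. Of 5 such sets of initiation factors, 3 rose, all naming the eIF3 genes Eif3j1 and Eif3j2, and the median was 0.26.

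Of the 38 calls, 25 held with each array left out in turn, and 13 did not. The count of ribosomal proteins that rose was 9 to 12 and that of initiation factors 15 to 19 when 1 array was missing, in place of 15 and 20. The lowest counts, 9 and 15, came without transgenic replicate 2. Rps24 and Eif2ak2 were lost without any array (adjusted p up to 0.122 and 0.131). Rplp2, Eif3i and Eif4h were lost without any array but wild-type replicate 1 (up to 0.0868, 0.119 and 0.0812). Rpl12 was lost without any but wild-type replicate 3 (up to 0.0945), and Eif3a without any but wild-type replicate 2 (up to 0.079). Rpl41 was lost without transgenic replicate 1 or 2 or wild-type replicate 3 (up to 0.0705), and Rps19 without transgenic replicate 1 or 2 or wild-type replicate 2 (up to 0.0552). Rps4l was lost without transgenic replicate 2 or wild-type replicate 2 or 3 (up to 0.08). Eif3b was lost without replicate 2 of either group (up to 0.0543). Rpl22l1 was lost without transgenic replicate 3 or wild-type replicate 1 (up to 0.076), and Rpl27a without transgenic replicate 2 (0.0599). All 13 kept their sign.

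A pair of sequence features of this machinery can be read at the gene starts. RefSeq promoter windows (GRCm38.p6, 250 bases before to 50 after the start) matched 83 of the 100 members. TFEB is known to bind the E-box core CACGTG, which reads the same on both strands. It lay in 12 of the 83 windows (14.5%), against 9.33% of array genes and 7.24% of all windows. It was in 6 of 30 windows of members that rose (20%) and in 6 of 52 of members that did not pass (11.5%). The longer TCACGTGA, which contains the core, lay in the window of Eef2 only (1.2%, against 1.53% of array genes). The following 30-base stretches are shown because they set members that rose (Eif4a1, Eif3k, Eif4h, Rpl19, Rpl14) beside Eef2, which holds the longer form and did not pass. They are a choice and do not show how the core is shared out. Left out are the windows with the core of Eif3a, which rose, and of Eef2k, Eef1aknmt, Eif1b, Eif3f and Rpl13a, which did not pass. Capitals mark the core, and the sequences run along the strand of the gene.
Eif4a1, chr11:69672595-69672624, minus strand: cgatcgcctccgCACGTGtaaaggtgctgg
Eif3k, chr7:28981915-28981944, minus strand: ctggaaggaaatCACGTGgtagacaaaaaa
Eif4h, chr5:134639488-134639517, minus strand: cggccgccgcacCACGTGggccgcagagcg
Rpl19, chr11:98026679-98026708, plus strand: tacccagaggacCACGTGaccaaacgccct
Rpl14, chr9:120571337-120571366, plus strand: ccaagctcactgCACGTGtctgaggagaag
Eef2, chr10:81176576-81176605, plus strand: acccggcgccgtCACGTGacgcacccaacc

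Messenger RNAs of ribosomal proteins and elongation factors are known to begin with a C and a run of pyrimidines, the terminal oligopyrimidine tract, through which mTORC1 sets their translation. A C followed by at least 4 pyrimidines at the annotated first base, read on the strand of the gene, was found in 10 of 83 windows (12%), against 2.37% of array genes and 2.49% of all windows. With the start allowed to shift by up to 5 bases it was in 30 windows (36.1%, against 19.9% and 18.5%). By class, the unshifted run was in 8 of 42 ribosomal protein, 2 of 33 initiation factor and 0 of 8 elongation windows. It was in 2 of 30 windows of members that rose and 8 of 52 of members that did not pass. The stretches below give 15 bases on each side of the start, for 2 genes that rose (Rplp2, Rpl14) and for 5 that did not pass. Capitals mark the matched C and the pyrimidines after it, and any pyrimidines before it stay in lower case. In Eef1a1 the matched C lies 1 base before the annotated start.
Rplp2, chr7:141447636-141447665, plus strand: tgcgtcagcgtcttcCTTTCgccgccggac
Rpl14, chr9:120571502-120571531, plus strand: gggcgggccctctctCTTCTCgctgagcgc
Rpl38, chr11:114668565-114668594, plus strand: agcggaagcctcgttCTTTCCCCgttctct
Rps6, chr4:86857353-86857382, minus strand: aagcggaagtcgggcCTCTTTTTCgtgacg
Rps18, chr17:33955651-33955680, minus strand: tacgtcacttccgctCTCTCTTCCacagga
Rps27, chr3:90213634-90213663, minus strand: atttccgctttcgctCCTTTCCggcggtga
Eef1a1, chr9:78481710-78481739, minus strand: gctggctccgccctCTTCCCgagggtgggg
A match describes these letters in this window and no more.

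Genes around the machinery were counted from 3 companion lists. Of all genes 19.9% rose and 20.4% fell. In brightness groups 6 to 10, counted from the dimmest, 25.7% to 32.1% rose and 17.8% to 29.4% fell. Of 40 measured genes of ribosome assembly and RNA polymerase I, 27 rose and 0 fell by limma (unadjusted, 29 higher and 0 lower), with a median of 0.33. The largest rises were Nhp2 (0.80) and Gar1 (0.72), of the particles that modify ribosomal RNA, Polr1e (0.79), a subunit of RNA polymerase I, and the nucleolar protein Nolc1 (0.75). Of 24 other genes of cytosolic translation, 9 rose and 4 fell, with a median of 0.18. The poly(A)-binding protein Pabpc4 rose by 0.72 and the recycling factor Denr by 0.69. Igf2bp1 rose by 0.71, from a mean of 4.05 to 4.76, and Gspt2 by 0.55. Paip2b, an inhibitor of poly(A)-binding protein, fell by 0.52 and Hbs1l, which rescues stalled ribosomes, fell by 0.52. Pdcd4, an inhibitor of eIF4A, fell by 0.40. Of 22 genes of mTORC1 and stress control of translation, 10 rose and 1 fell, with a median of 0.15. Trib3, a stress-induced pseudokinase, rose by 2.07 (SE 0.15), Myc, an activator of ribosomal genes, by 1.97 (SE 0.19) and Mknk2 by 0.71 (SE 0.08). Ddit3, the stress factor CHOP, rose by 0.67 (SE 0.11), while Atf4, translated when eIF2 is phosphorylated, differed by 0.13 (adjusted p = 0.228). Of the regulatory subunits of the eIF2 phosphatase, Ppp1r15b fell by 0.36 and Ppp1r15a rose by 0.24 (adjusted p = 0.0266).

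Other cell types of the liver read differently in the groups, and their part in these results was not tested. The level summed over each marker list is given on the log2 scale, wild type before transgenic. Beside the counts of markers, 19.9% of all genes rose and 20.4% fell. Hepatocyte markers, the labelled tissue's main cells, summed to 16.44 to 16.49 and 16.38 to 16.40 (2 of 4 fell, Hnf4a and Apoa1). Granulocyte markers summed to 13.41 to 14.55 and 11.33 to 12.51 (6 of 7 fell), and lymphoid markers to 9.24 at most and 8.14 to 8.37 (4 of 4 fell). Bile duct markers summed to 8.13 to 9.46 and 10.13 to 10.37 (3 of 4 rose). Endothelial markers summed to 11.35 to 11.37 and 10.94 to 11.07 (3 of 4 fell). Red cell precursor markers summed to 12.55 to 12.76 and 12.50 to 12.92 (4 of 6 rose). Most of that sum is Tfrc, which read 12.26 and 11.94 on average. Hemgn rose by 1.11, Slc4a1 by 1.00, Epb42 by 0.98 and Klf1 by 0.35, while Tfrc (-0.32) and Alas2 (-0.28) did not pass. Markers of dividing cells summed to 11.20 to 11.48 and 11.51 to 11.66 (1 of 3 rose). Macrophage markers summed to 13.31 to 13.62 and 13.09 to 13.45 (1 of 5 fell) and stellate cell markers to 10.13 at most and 9.96 to 10.23 (1 of 4 fell). The normalization leaves no reading at 0.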

How the data were processed

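Total RNA of 6 livers was labelled as biotinylated cRNA and put on Affymetrix arrays, per the labels' protocols. What the authors deposited is a log2 value for every probe set, from affy and RMA per the submitters' processing notes; versions and filters: not given in the sources used here. RMA equalises the arrays' distributions, which hides any shift in RNA content per cell. No depth applies to arrays.

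Groups and replicate numbers came from the sample titles. The platform annotation gives 1 gene for 20380 of 22690 probe sets, several for 691 and none for 1555; 64 are controls. RefSeq (GRCm38.p6) identifiers were found for 20351 of these, with 0 symbols renamed, and the other 29 kept the array's own symbol. Each gene was read by its brightest probe set.

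Groups were compared with limma 3.58.1 in R 4.3.3 (lmFit, eBayes, no covariates) over 12393 genes with a threshold of 0.05 on the Benjamini-Hochberg adjusted p. The smallest p of an exact permutation of 3 against 3 is 0.1, so that test was left out. Single probe sets were adjusted over 20380. The script was tested on simulated data. Tables used pandas 2.3.3 and Python 3.11.15, and plots matplotlib 3.10.9.

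The members and lists were chosen with earlier results of these data known. Genes named are up to 6 largest rises and falls past the threshold in each subunit, among initiation and among elongation genes, all elongation genes, paralog pairs and complexes, and up to 4 of each companion list; Rps6, Eif4h, Rplp2, Atf4 and others outside this rule were chosen after their values were seen. Alternatives were, for probe sets, their mean per gene, each on its own, or none ending in _x_at, _s_at or _a_at; for scaling, median centring, repeated quantile, cyclic loess or the bacterial controls; for the fit, array weights, a replicate block, or eBayes with trend and robust options; and omission of the dimmest 40% of genes or of each array. Probe sets naming several genes were used only where stated.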

Additional observations from a re-analysis of the deposited data

How the results depend on the processing

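Of 954 comparisons of a member with an alternative other than leaving out an array, 831 kept their side of the threshold. With the sign unchanged, 81 passed in addition and 34 no longer passed. The other 8 crossed the threshold with a changed sign. In 49 comparisons the sign changed, 17 of them with bacterial scaling, which shifts all genes alike and so turned every member below 0. In 8 of the 49 the member passed before or after the change: 7 with bacterial scaling (Rpl27a 0.10, Rps15a-ps6 0.34, Rps28 0.34, Eif1b 0.29, Eif4a2 0.31, Eif4b 0.36, Eif4g3 0.36) and Rpl22 at -0.23 by the mean of the probe sets. Bacterial scaling, which moves the median of all genes to 0.33, called 7010 genes higher and 651 lower, with 46 ribosomal proteins, 35 initiation and 8 elongation genes higher and 0 ribosomal proteins lower, and medians of 0.51, 0.59 and 0.48. Cyclic loess gave 2 initiation factors lower and medians of 0.08 for ribosomal proteins and 0.05 for elongation genes. Median centring gave 1 initiation and 1 elongation gene lower, and repeated quantile normalization 1 initiation gene lower. The trend and robust options called 24 ribosomal proteins higher, and 2 ribosomal proteins were lower by the mean of probe sets. Every probe set alone, counted over more features, called 3801 higher in all, with 23 ribosomal higher and 3 lower, 37 initiation higher and 1 lower, and 4 elongation sets higher. Leaving out the dimmest 40% of genes, which tests fewer genes, left 1660 lower. Without sets of possible cross-hybridisation, 1879 of 10529 genes were higher, among them 9 ribosomal proteins and 13 initiation factors. With an array left out, 1876 to 2411 genes were higher and 1890 to 2407 lower, with 9 to 12 ribosomal proteins and 15 to 19 initiation factors higher and 0 to 1 elongation genes lower. The causes of the normalization effects were not tested.

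The replicate numbers did not pair the animals: same-numbered arrays deviated from their group means with correlations of -0.1027, -0.0218 and 0.0574. With the number as a replicate block, 2111 genes were higher and 2168 lower, among them 11 ribosomal proteins, 16 initiation factors and 2 elongation genes higher.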

Other observations

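Mitochondrial ribosomes are built from proteins of their own, encoded in the nucleus, and were no members. Of 74 measured genes of mitochondrial ribosomal proteins, 28 rose and 8 fell, with a median difference of 0.14 and a range from -0.48 to 1.06, against 15 of 49 and 1 of 49 of the cytosolic ones with a median of 0.13. Over all genes 19.9% rose and 20.4% fell. The difference of the mitochondrial from the cytosolic ribosomal proteins was not tested.

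By another probe set than the brightest, 6 members that did not pass were called higher, among them Rpl13a (0.56), Eif4e2 (0.44), Rpl7l1 (0.25) and Rps14 (0.21), and 3 were called lower (Rpl22 -0.57, Rps4x -0.41 and Eif2ak1 -0.35).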
